A study of Mus musculus with 3 samples.

Results

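Tfh subcluster 0 is the group of follicular helper T cells (Tfh) that the authors' Tfh table numbers 0 and that is led by Lmo4, Smtn, Pde3b, Rflnb, St8sia1 and Eya2. Its members are the rows of that table with cluster number 0, matched by barcode to the count matrices. It held 3293 of 13784 Tfh rows, out of 18693 annotated rows in all. Follicular T cells were sorted from mouse spleen by surface markers 14 days after immunisation with OVA-liposome, and RNA of single cells was counted as unique molecular identifiers (UMIs) with the 10x 3′ assay. Every mouse was immunised, and the groups are wild type (WT, samples 1 and 2) and a Siglec-G B-cell knockout (BKO, 1 sample). The knockout is in B cells, so the sequenced T cells are not the targeted cells, and the driver of the deletion, the number of mice and their age are not given in the sources used here. Batch 1 in the labels covers WT sample 1 and the BKO sample, while WT sample 2 is batch 2.

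The 2 WT samples hold the same cells, and are called WT run 1 and WT run 2. Over 200 members of subcluster 0, the profile of a barcode correlated with its own profile in the other run at a median r of 0.877, against 0.553 with another member. The 1036 and 1049 WT rows of subcluster 0 therefore hold 1093 distinct barcodes, and 1 library of each genotype is compared. No p-value can be given. Genes are described by a rule of size, without replicates behind any difference. Intervals are exact 95% intervals and cover counting error only. Of the BKO members, 1 shared a barcode with a cell of WT run 1 and 1 with a cell of WT run 2. The median member held 4294.5, 7086 and 6438 UMIs (WT run 1, WT run 2, BKO), of which 4.2%, 4.2% and 4.3% were mitochondrial. All sets of 3 values below follow that order. The headers of the matrices name cellranger-7.0.1 for WT and Cell Ranger 4 for BKO, so the program cannot be told apart from the genotype.

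Tfh cells express the chemokine receptor Cxcr5 and the transcription factor Bcl6, enter the B cell follicle, and help B cells of the germinal centre through CD40 ligand, interleukin 21 and interleukin 4. Interleukin 4 is produced most by Tfh cells that have settled in the germinal centre. Siglec-G dampens B cell receptor signals on binding sialic acid. Lmo4 is a LIM-domain protein that joins transcription factor complexes, and Eya2 is a transcriptional co-activator and phosphatase. Pde3b breaks down cyclic AMP, St8sia1 adds a sialic acid to gangliosides, Smtn binds actin, and Rflnb binds filamin.

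The bases before a RefSeq start of Lmo4, Smtn and Il4 are shown because Lmo4 and Smtn lead the subcluster and Il4 is the helper cytokine that went with them. The sequences are those of RefSeq on GRCm38.p6, each 250 bases long, minus strand, 5′ to 3′. Capitals mark matches to GGAAAA on either strand, the core of a site for NFAT, a factor of T cell activation. For genes with several starts in RefSeq the one farthest upstream is shown. The Smtn stretch lies before its RefSeq start but inside the longer gene span given below (3517523 to 3540612).
Lmo4, chr3:144205256-144205505: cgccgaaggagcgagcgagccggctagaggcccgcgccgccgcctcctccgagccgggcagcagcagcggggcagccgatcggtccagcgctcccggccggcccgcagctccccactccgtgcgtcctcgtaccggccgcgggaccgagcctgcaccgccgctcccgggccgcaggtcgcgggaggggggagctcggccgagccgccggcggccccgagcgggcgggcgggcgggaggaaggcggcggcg
Smtn, chr11:3539293-3539542: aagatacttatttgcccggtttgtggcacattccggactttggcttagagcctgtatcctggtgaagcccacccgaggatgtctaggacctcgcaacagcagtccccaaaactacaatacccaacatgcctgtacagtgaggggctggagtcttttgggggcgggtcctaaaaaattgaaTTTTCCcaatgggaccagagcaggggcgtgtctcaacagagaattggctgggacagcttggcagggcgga
Il4, chr11:53618666-53618915: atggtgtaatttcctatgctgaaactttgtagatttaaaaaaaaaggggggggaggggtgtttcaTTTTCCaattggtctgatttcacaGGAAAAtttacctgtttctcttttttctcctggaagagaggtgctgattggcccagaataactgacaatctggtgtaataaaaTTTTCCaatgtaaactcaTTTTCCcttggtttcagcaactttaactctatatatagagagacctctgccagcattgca
The Il4 stretch held 4 matches, that of Smtn 1 and that of Lmo4 0. A second Il4 start in the table (53617339 to 53617588) held 0 matches to GGAAAA and 3 E-boxes, and the other Lmo4 starts (144202397 to 144202646 and 144202333 to 144202582) held 0 and 1 each. Of all 32851 stretches of equal length in RefSeq, 20.4% held at least 1. The E-box CANNTG was found 1 time in the Il4 stretch shown and 0 times in those of Smtn and Lmo4, against 66.2% of all stretches with a match, and AGATAA (the motif of GATA factors) in none of the 3, against 9.99%. These are matches of letters, not sites. The table of RefSeq stretches used here matched 4 of the 6 markers, and Rflnb and St8sia1 held 0 matches to GGAAAA each.

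The level of each marker by subcluster shows how far the label holds. Levels are given in CPM, the UMIs of a gene scaled to the UMI total of the group. Lmo4 (ENSMUSG00000028266, minus strand of mm10 chromosome 3, 144188530 to 144205220) reached 484 CPM (interval 465, 504), 506 CPM (interval 491, 522) and 480 CPM (interval 465, 495) in subcluster 0. In all other Tfh cells it stood at 76.3 CPM (interval 71.7, 81.0), 84.4 CPM (interval 80.6, 88.4) and 156 CPM (interval 152, 161). Its level in subcluster 0 was alike in the 3 samples, while the other Tfh cells of BKO lay above those of WT. The next highest Lmo4 levels in WT were in subcluster 3, at 186 and 195 CPM, and in BKO in subcluster 2, at 216 CPM. The lowest in each sample was in subcluster 1, at 20.4, 29.0 and 31.6 CPM.

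**Figure D1:**
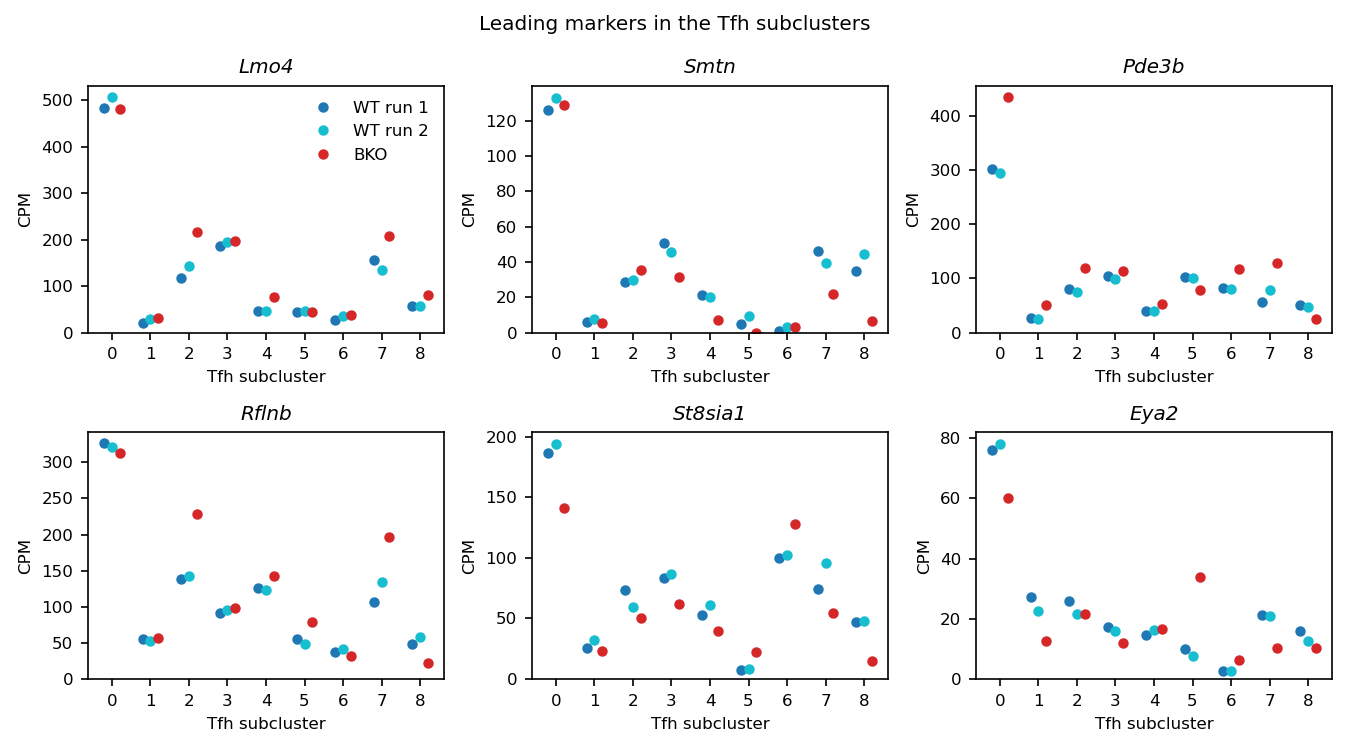
Level of the 6 markers in CPM (y axis) in each of the 9 Tfh subclusters (x axis), with 1 point per sample. In all 6 genes subcluster 0 is highest in each sample, and Lmo4 in BKO falls from 480 CPM there to 216 CPM in subcluster 2.

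Smtn (ENSMUSG00000020439, minus strand of chromosome 11, 3517523 to 3540612) stood at 126, 133 and 129 CPM in subcluster 0, against 21.1, 21.3 and 24.2 CPM in other Tfh cells. Pde3b (ENSMUSG00000030671, plus strand of chromosome 7, 114415281 to 114539251) stood at 302, 294 and 435 CPM against 65.8, 64.2 and 97.1 CPM. BKO was above both WT runs inside and outside the subcluster. Rflnb (ENSMUSG00000020846, minus strand of chromosome 11, 76019194 to 76027782) stood at 326, 321 and 313 CPM against 75.9, 76.8 and 146 CPM. St8sia1 (ENSMUSG00000030283, minus strand of chromosome 6, 142821545 to 142964452) stood at 186, 194 and 141 CPM against 51.1, 54.0 and 49.0 CPM. Eya2 (ENSMUSG00000017897, plus strand of chromosome 2, 165595032 to 165771727) stood at 76.1, 78.1 and 60.1 CPM against 18.8, 16.3 and 16.1 CPM. These 6 genes were known to lead the cluster, and the cells were clustered on their expression, so the differences are a description and not a test.

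The markers were detected in different members to different degrees. After each cell was thinned to 2500 UMIs, leaving out 33, 4 and 5 shallower members, Lmo4 had a UMI in 52.2% (interval 49.1, 55.4), 54.6% (interval 51.6, 57.7) and 53.0% (interval 50.1, 55.8) of members. The share in other Tfh cells was 12.2%, 13.2% and 25.6%, and in follicular regulatory cells (Tfr) 4.35%, 4.56% and 4.67%. Without thinning, 65.2%, 76.8% and 72.3% of members had a Lmo4 UMI. The median member had a UMI of 2 of the 6 markers, in each sample, and 39.2%, 37.2% and 37.6% of members had 3 or more. In other Tfh cells 3.95%, 4.25% and 8.98% had 3 or more. The share in WT lay below that in BKO outside the subcluster and near it inside.

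Most WT members kept their subcluster between sequencing runs. Of 1031 WT cells that run 1 placed in subcluster 0 and that run 2 also annotated, 992 (96.2%) were placed there again. The other Tfh subclusters ranged from 75.7% in subcluster 1 to 98.0% in subcluster 8, and subcluster 5 also lay above subcluster 0, at 97.5%. Of the members placed elsewhere in the other run, 38 went to or came from Tfr subcluster 0, 26 Tfh subcluster 3 and 16 Tfh subcluster 2. At the finer resolution 0.5 of the authors' table, 3146 members (95.5%) shared 1 cluster of 3678 rows, which also held 405 other Tfh rows and 127 Tfr rows.

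Members had Cd4 at 452, 449 and 410.5 CPM in WT run 1, WT run 2 and BKO. Cxcr5 stood at 282, 283 and 347 CPM, and Bcl6 at 216, 218 and 255 CPM. Foxp3, which defines Tfr cells, gave a UMI in 0%, 3.24% and 0.248% of members and in every Tfr cell, so the share in members is no check on Tfr cells among them. In WT run 2, 12.6% of other Tfh cells had one. Summed over 14 myeloid genes members had 6.90, 6.89 and 5.24 CPM, with 4, 3 and 6 of the genes at 0. Over 8 erythroid and platelet genes they had 2.84, 4.48 and 9.02 CPM, with 5, 3 and 3 at 0. Over 16 B cell genes the sums were 73.6, 71.9 and 78.9 CPM, with 5, 3 and 5 at 0, and Cd79a, a signalling chain of B cells, had 0, 1 and 3 UMIs. The immunoglobulin gene Ighm is outside this list and is given below. Siglecg, the targeted gene, gave 1, 1 and 0 UMIs in members, and since T cells are not its targeted cells this checks no label.

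A single WT barcode among the members carried plasma cell transcripts. It held 2222 of 2282 UMIs of the immunoglobulin gene Igkc in WT run 1 and 3337 of 3451 in WT run 2, with 130 and 197 UMIs of Jchain, which joins secreted antibodies. Without it Igkc stood at 12.2, 13.8 and 18.9 CPM in WT run 1, WT run 2 and BKO. Igkc, chosen after its values were seen, passed the rule as lower in BKO with this barcode and not without it. Ighm, also chosen later, was found well beyond this barcode, with a UMI in 555, 709 and 884 members. Without the barcode of most Igkc UMIs in each sample Ighm stood at 223, 234 and 307 CPM. The source of these Ighm UMIs was not tested. With the barcode of most Igkc UMIs left out of each sample, a setting added after seeing the data, 27 genes were higher in BKO and 31 lower, against 31 and 30 with all cells.

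Subcluster 0 made up a smaller share of Tfh cells in BKO. It held 1036 of 3727 Tfh cells in WT run 1 (27.8%, 26.4 to 29.3), 1049 of 3668 in WT run 2 (28.6%, 27.1 to 30.1) and 1208 of 6389 in BKO (18.9%, 18.0 to 19.9). BKO minus the mean of the WT runs was -9.29 percentage points, beyond the counting intervals, with no replicate of either genotype. Subcluster 2 made up 6.90%, 7.33% and 34.1% of Tfh cells, and the Ccl5-high subcluster 5 made up 9.63%, 9.90% and 0.172%. Counted without subcluster 2, subcluster 0 made up 30.4% of WT cells, as the mean of the runs, and 28.7% of BKO cells. Without subclusters 2 and 5 the shares were 33.9% and 28.8%. Shares sum to a fixed total, so a smaller share does not show fewer cells. Tfr subcluster 0, which shares its leading markers, held 39.1%, 40.0% and 15.4% of Tfr cells.

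**Figure D2:**
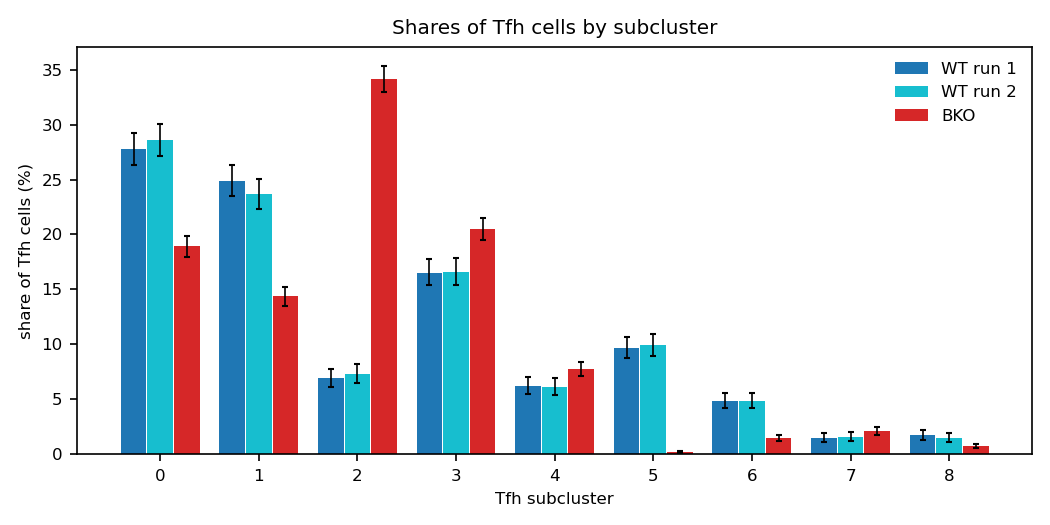
Share of Tfh cells in each subcluster (y axis, %) for WT run 1, WT run 2 and BKO (bars), with exact 95% intervals (lines). Subcluster 0 stands at 27.8%, 28.6% and 18.9%, while subcluster 2 stands at 34.1% in BKO and near 7% in WT.

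Against other Tfh cells of the same library, 226 of 6573 genes tested (3.44%) were at least 1.5-fold higher in subcluster 0 in all 3 samples and 154 (2.34%) at least 1.5-fold lower. Genes needed a mean of 20 CPM, and ratios were taken after adding 0.5 CPM. The median gene had a log2 ratio of 0.09. With TMM scaling, which sets the bulk of genes equal, the median was -0.03 and the counts were 135 higher and 223 lower. A gene can pass the minimum through 1 of the groups of cells alone, where it had to come out higher in that group. With 20 CPM asked of subcluster 0 and of other Tfh cells each, a setting added after seeing the data, 182 of 6233 genes (2.92%) were higher and 93 (1.49%) lower, with a median of 0.08. Counts of gene lists below use these 6233 genes, called well measured here, unless stated otherwise. Other genes with the largest ratios were Krt83 (3.85-fold), Ldlrad3 (4.11-fold), the cytokine receptor Il9r (3.46-fold), the muscarinic receptor Chrm3 (3.46-fold), the transcription factor Glis3 (3.13-fold) and the chemokine receptor Cxcr6 (3.36-fold), all on the scale with 0.5 CPM added. Ube2e2, a ubiquitin-conjugating enzyme, was 4.10-fold higher. Eya2, Ldlrad3, Ube2e2 and Glis3 reached the minimum through subcluster 0 alone. Just inside the threshold was Sh3kbp1 at 1.502-fold in its lowest sample, and just outside was Tbc1d1 at 1.495-fold.

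The helper genes did not move as 1 group. Of 11 well measured genes of B cell help, 2 were higher, 1 was lower and 8 did not pass, with a median log2 ratio of 0.21. The shares over all well measured genes were 2.92% higher and 1.49% lower. With TMM scaling Cd40lg no longer passed. Il4 (ENSMUSG00000000869, minus strand of chromosome 11, 53602982 to 53618669) stood at 184 CPM (interval 173, 197), 188 CPM (interval 179, 198) and 172 CPM (interval 163, 181) in members. In other Tfh cells it stood at 57.2, 63.6 and 57.6 CPM. Among subclusters, Il4 was highest in subcluster 0 in each sample, followed by subcluster 3 at 155, 164 and 97.2 CPM. Cd40lg, the CD40 ligand, stood at 309, 321 and 319 CPM against 141, 148 and 206 CPM, and subcluster 3 lay near it at 334, 346 and 311 CPM.

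Il21 (ENSMUSG00000027718, minus strand of chromosome 3, 37222759 to 37232636) went the other way. It stood at 26.8 CPM (interval 22.4, 31.8), 30.7 CPM (interval 27.1, 34.7) and 49.7 CPM (interval 45.0, 54.8) in members and at 49.8, 55.9 and 76.7 CPM in other Tfh cells. Subcluster 3 held the highest Il21, at 135, 152 and 150 CPM. After thinning, 30.4% (interval 27.6, 33.4), 31.1% (interval 28.3, 34.0) and 26.6% (interval 24.1, 29.2) of members had an Il4 UMI, against 9.61%, 10.1% and 10.3% of other Tfh cells. An Il21 UMI was found in 4.19% (interval 3.03, 5.62), 4.88% (interval 3.66, 6.37) and 8.40% (interval 6.89, 10.1) of members, against 8.34%, 9.78% and 12.8%. Unthinned, 44.1%, 55.8% and 46.2% of members had an Il4 UMI and 5.99%, 10.0% and 17.1% an Il21 UMI. Members with an Il4 UMI held an Il21 UMI in 4.92% (interval 2.78, 7.98), 6.46% (interval 4.04, 9.71) and 6.88% (interval 4.36, 10.2) of cells. Members without one did so in 3.87% (interval 2.56, 5.58), 4.17% (interval 2.83, 5.90) and 8.95% (interval 7.15, 11.03), and these intervals overlap in each sample.

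Of 22 well measured Tfh identity genes, 3 were higher, 2 were lower and 17 did not pass, with a median log2 ratio of 0.31. The shares over all well measured genes were 2.92% higher and 1.49% lower. Cxcr5 was 1.70-fold, Tox2, a factor of the Tfh program, 1.85-fold and Dennd2d 1.87-fold higher. With TMM scaling none of these 3 passed, and 0 genes of the list were higher. Batf, a factor induced by the T cell receptor, was 1.80-fold lower and Sostdc1 3.6-fold lower. Bcl6 was 1.44-fold higher and Pdcd1 1.22-fold higher without passing. A Bcl6 UMI was found after thinning in 37.6%, 35.4% and 40.6% of members, and subcluster 3 lay near them at 39.5%, 39.1% and 38.5%. Members stood at 89.9, 83.6 and 72.8 CPM of Sostdc1, against 289, 269 and 332 CPM in other Tfh cells. The Sostdc1 level of each other subcluster is not given here, so low Sostdc1 is not shown to be particular to subcluster 0.

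Genes of T cell receptor response were lower together. Of 10 well measured, 8 were lower and 0 higher, with a median log2 ratio of -1.16, against 1.49% of the well measured genes. Egr1, an early response factor, stood at 37.7, 45.2 and 38.3 CPM in members and 109, 109 and 113 CPM in other Tfh cells. Its level in subcluster 3 was 270, 254 and 272 CPM. Tnfrsf4 (OX40, 4.52-fold lower), Tnfrsf9 (4-1BB, 3.68-fold), Dusp2 (2.83-fold), Cd69 (2.30-fold), Nfkbia (2.15-fold), Ier2 (1.85-fold) and Junb (1.71-fold) were the others. Tagap (3.76-fold) and Nfkbid (2.22-fold) also lay lower but passed the minimum only through other Tfh cells. Of 19 heat shock and dissociation genes, 2 of 11 well measured were lower, against 1.49% of all well measured genes. The summed levels of the 19 genes were 2583, 2500 and 2700 CPM in members against 3352, 3234 and 3615 CPM. Ier2 and Junb are in both lists. The other Tfh cells include subcluster 3, which made up 16.5%, 16.6% and 20.5% of Tfh cells. The parts of handling and of subcluster 3 in these ratios were not tested. A low T cell receptor response is thus not shown to be particular to subcluster 0.

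**Figure D3:**
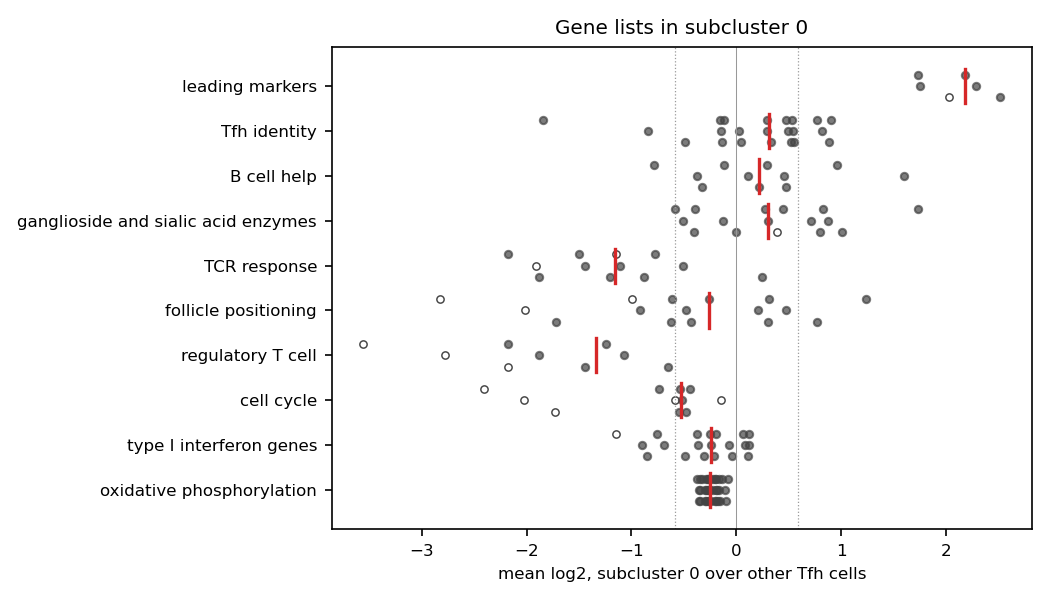
Log2 ratio of subcluster 0 over other Tfh cells, averaged over the 3 samples (x axis), for measured members of 10 gene lists (points), with each median in red and dotted lines at 1.5-fold. Filled points reach 20 CPM in subcluster 0 and in other Tfh cells and set the medians, and open points reach it in 1 of these groups only. The TCR response genes have a median of -1.16 and the regulatory genes -1.34, while the Tfh identity genes have 0.31.

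Genes of regulatory T cells were low as well. Of 6 well measured, 5 were lower and 0 higher, with a median log2 ratio of -1.34, against 1.49% lower of all well measured genes. Of these 5, Tnfrsf4, Tnfrsf9 and Ctla4 are also in other lists. The other Tfh cells include subcluster 1, which made up 24.9%, 23.6% and 14.4% of Tfh cells. In WT run 2 a Foxp3 UMI was found after thinning in 10.7% of subcluster 1. The share there was 1.44% in subcluster 0, 2.18% in subcluster 2 and 2.48% in subcluster 3. The part of subcluster 1 in these ratios was not tested. Ikzf2, the factor Helios, stood at 701, 712 and 836 CPM in members against 1905, 1938 and 1494 CPM, and Ctla4, an inhibitory receptor, at 59.8, 57.6 and 90.4 CPM against 180, 176 and 202 CPM. Ikzf4, Capg and Entpd1 reached the minimum only through other Tfh cells and had to come out lower. Entpd1, which degrades extracellular ATP, stood at 2.03, 2.90 and 4.02 CPM against 58.7, 56.1 and 18.4 CPM.

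Genes of egress and of memory split. Klf2, the factor that drives exit from lymphoid organs, stood at 14.0, 16.6 and 19.9 CPM in members and 130, 121 and 113 CPM in other Tfh cells, through which it passed the minimum. A Klf2 UMI was found after thinning in 2.29%, 2.87% and 3.99% of members and 15.6%, 16.2% and 11.9% of other Tfh cells. The share was also low in subcluster 1 (4.60%, 5.69% and 3.03%) and subcluster 3 (4.42%, 4.95% and 4.74%). Low Klf2 is thus not particular to subcluster 0. The Klf2 target S1pr1, the egress receptor, was 1.89-fold lower. Gpr183, which guides cells towards the edge of the follicle, was 2.36-fold higher, at 695, 710 and 571 CPM against 266, 266 and 301 CPM. Of 13 well measured follicle positioning genes 2 were higher (Cxcr5 and Gpr183) and 2 lower (Cxcr3 and S1pr1). Of 10 naive and memory genes 3 were higher (Il7r, Lef1 and Satb1) and 1 lower (S1pr1). Over all well measured genes 2.92% were higher and 1.49% lower, and these small counts were not tested against that. With TMM scaling Cxcr5, Il7r and Lef1 no longer passed.

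St8sia1 is a marker and was chosen for its level. Of 14 other well measured enzymes of gangliosides and sialic acid, 5 were higher and 0 lower, with a median log2 ratio of 0.29, against 2.92% of the well measured genes. St8sia4 was 1.77-fold, St3gal1 1.83-fold, St3gal2 2.01-fold, St6gal1 1.64-fold and Ugcg, which starts ganglioside synthesis, 1.74-fold higher. With TMM scaling St3gal2 and Ugcg alone among these 5 still passed. St6gal1, which builds the sialic acid linkage that Siglec-G's relative CD22 prefers, stood at 539, 552 and 518 CPM against 342, 345 and 298 CPM. Of 15 cyclic AMP genes other than Pde3b, 1 was higher (Pde7a, 1.85-fold) and 1 lower (Ptger2, a receptor that raises cyclic AMP, 1.79-fold). Of 25 actin and contractile genes other than Smtn and Rflnb, 1 was higher (Actn1, lost with TMM scaling) and 2 lower, with Vim 3.91-fold lower. Of 13 LIM domain genes and partners of Lmo4, 0 were higher and Crip1 was 3.24-fold lower. In these 3 lists 1 gene or none was higher, against 2.92% of the well measured genes, and nothing is read from them.

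Of 19 well measured type I interferon genes 3 were lower (Isg15, Ifi27l2a and Bst2) and 0 higher, against 1.49% lower of all well measured genes. Of 6 cell cycle genes 1 was lower (Mcm6). Mki67, Top2a and Stmn1 passed the minimum only through other Tfh cells. Oxidative phosphorylation had 0 of 37 genes past the rule, with all 37 below 0 and a median log2 ratio of -0.25. Of all genes tested at the main setting, 61.2% lay above 0. With TMM scaling the median of the oxidative phosphorylation list was -0.37. In the Th1 and cytotoxic list, 8 genes passed the minimum, 6 of them only through other Tfh cells. Of the remaining 2, Cxcr6 was higher, as given above, and Cxcr3 lower. Nkg7 stood at 3.25, 6.17 and 1.10 CPM in members against 336, 315 and 33.7 CPM, and Ccl5 at 17.4, 32.5 and 2.19 CPM against 2989, 2919 and 39.7 CPM. Subcluster 5 held the highest Ccl5, at 22000, 20100 and 11200 CPM, with 11 cells in BKO. Without subclusters 5 to 8 among the other cells, the calls of Nkg7, Ccl5, Eomes, Hist1h1b and Hist1h2ap were lost.

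Within subcluster 0, 31 of 6597 genes (0.47%) exceeded each WT run by at least 1.5-fold in BKO and 30 (0.455%) lay at least 1.5-fold below, with a median log2 ratio of -0.02. Between the WT runs, which differ in depth and share cells, 0 genes were higher and 6 lower in run 1 by the same fold. The median log2 ratio was -0.11 for 847 genes with over 100 kb of intron and 0.07 for 776 genes with under 3 kb, and the part of intron reads was not tested. With the trend over intron length taken off, 42 genes were higher and 28 lower. Most of these differences had the same sign in other Tfh cells, and fewer reached the same fold there. Of the 31 higher genes, 26 had the same sign in other Tfh cells against both WT runs, and 10 reached the same fold there. Of the 30 lower genes, 28 had the same sign there and 17 reached the same fold. The share of all genes tested with the same sign in both groups of cells is not given here.

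Gal, the neuropeptide galanin (ENSMUSG00000024907, minus strand of chromosome 19, 3409915 to 3414544), stood at 16.4 CPM (interval 13.0, 20.4), 16.3 CPM (interval 13.7, 19.3) and 56.5 CPM (interval 51.5, 61.9), a ratio of 3.38. In other Tfh cells it stood at 16.95, 19.7 and 28.5 CPM. After thinning, 0.499%, 0.383% and 2.66% of members had a Gal UMI. Cxcr3, a receptor for interferon-induced chemokines, stood at 13.8, 19.0 and 37.9 CPM in members, below the 64.7, 62.1 and 92.8 CPM of other Tfh cells. Cxcr4, which draws cells to the dark zone of the germinal centre, stood at 27.4, 37.7 and 68.7 CPM in members. In other Tfh cells Cxcr4 stood at 22.2, 31.6 and 51.9 CPM.

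Ly6a, an interferon-inducible surface protein, stood at 150, 148 and 256 CPM in members (1.72-fold higher in BKO) and 173, 163 and 384 CPM in other Tfh cells. Other genes higher in BKO members were Gadd45b (2.18-fold), Padi4 (2.11-fold), Tubb2a (1.89-fold), Iigp1 (1.96-fold) and Fam43a (1.84-fold). Each was also higher in BKO in other Tfh cells, with Tubb2a at 23.6, 23.3 and 46.3 CPM and Iigp1 at 51.5, 52.2 and 71.1 CPM there. Il21 was 1.72-fold higher, Pim1 1.68-fold and Ctla4 1.54-fold higher. The share of members with an Il21 UMI after thinning, given above, was also higher in BKO, beyond the counting intervals. Ikzf3, the factor Aiolos, was chosen after its values were seen, and stood at 331, 308 and 506 CPM in members and 282, 266 and 273 CPM in other Tfh cells.

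Satb1, a chromatin organiser of T cells (ENSMUSG00000023927, minus strand of chromosome 17, 51736187 to 51833290), stood at 103 CPM (interval 93.9, 112), 99.5 CPM (interval 92.9, 107) and 40.9 CPM (interval 36.7, 45.6), and BKO was 2.45-fold below WT. In other Tfh cells it stood at 29.0, 31.0 and 20.3 CPM. A Satb1 UMI was found in 19.2%, 19.4% and 7.65% of members after thinning. Nebl stood at 71.8, 71.7 and 12.6 CPM in members, 5.54-fold lower. Both WT runs lay above BKO with no overlap of intervals. Ccr4 (2.39-fold lower), Hectd2 (2.24-fold), Ube2e2 (2.18-fold), Chdh (2.05-fold), Prickle1 (2.13-fold), Trat1 (1.98-fold) and St6galnac3 (1.93-fold) followed. S100a4, a calcium-binding protein of effector cells, stood at 275, 271 and 128 CPM in members and 683, 652 and 366 CPM in other Tfh cells.

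**Figure D4:**
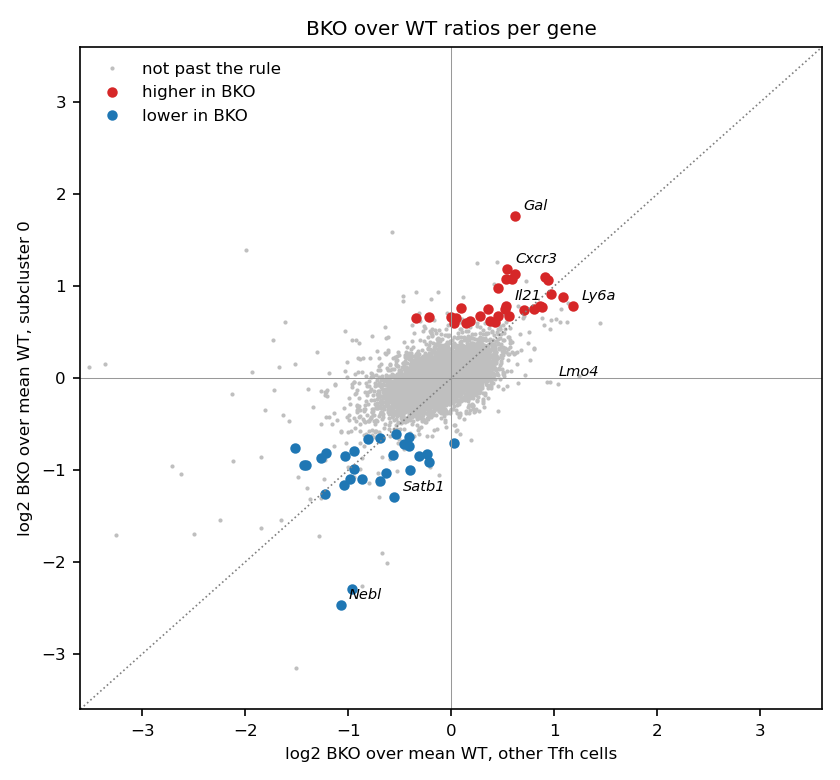
Log2 ratio of BKO over the mean of the WT runs in other Tfh cells (x axis) and in subcluster 0 (y axis) for 6986 genes (points), with the 31 higher and 30 lower genes of subcluster 0 in colour and the dotted line at equal ratios. Outside the axes lie 4 genes, and Lmo4 sits near 0 on the y axis and near 1 on the x axis.

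The lists held few genes past the rule between genotypes, as did all genes (0.47% higher and 0.455% lower), so nothing is read from their counts. Of 11 genes of B cell help 1 (Il21) was higher and 0 lower in BKO. Il4 differed by a log2 ratio of -0.10 and -0.13 from the WT runs. Of the 6 markers 0 passed the rule; Pde3b was 1.46-fold higher, St8sia1 1.35-fold lower and Eya2 1.28-fold lower in BKO. Of 22 Tfh identity genes 0 passed, and of 16 sialic acid enzymes only St6galnac3 was lower. Of 10 TCR response genes 0 passed, and of 19 interferon genes Ly6a was higher.

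The difference between subcluster 0 and other Tfh cells was then compared across genotypes. Of 6573 genes 139 (2.11%) had a BKO over WT ratio at least 1.5-fold higher in subcluster 0 than in other Tfh cells, and 15 (0.228%) at least 1.5-fold lower. With TMM scaling the counts were 59 and 61, and the median moved from 0.10 to -0.07. With 20 CPM asked of both groups of cells each, the counts were 97 (1.56%) and 12 (0.193%) of 6233. The largest values on the higher side came from Ccl4, Ctla2a, Gzmk, Ccl5, Hip1, Entpd1 and Hist1h2ae, all under that minimum in members. They passed only through other Tfh cells, where they were lower in BKO than in WT. These genes stood at 0.122 CPM (Ccl4 in BKO) to 32.5 CPM (Ccl5 in WT run 2) in members. With subclusters 5 to 8 left out of the other Tfh cells, 63 of the 139 still passed, and the sign turned for Gzmk and Ccl5 among those named.

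On the lower side Lmo4 had log2 ratios of -0.01 and -0.08 in members against WT run 1 and WT run 2, and 1.03 and 0.89 in other Tfh cells. Rflnb had -0.06 and -0.03 in members and 0.94 and 0.92 in other Tfh cells. Both markers thus set subcluster 0 apart less in BKO than in WT. The other Tfh cells differ in make-up, with subcluster 2 at 6.90%, 7.33% and 34.1% of Tfh cells and subcluster 1 at 24.9%, 23.6% and 14.4%. The part of make-up in these ratios was not tested. H2-Q2, an MHC class I gene with near-identical copies so that its counts are uncertain, stood at 77.3, 85.2 and 124 CPM in members and 23.1, 22.4 and 62.6 CPM in other Tfh cells. Dgki was also lower, as were Satb1 and Nebl, described above. Cd200, a ligand of an inhibitory receptor, stood at 101, 115 and 70.4 CPM in members and at 122, 135 and 137 CPM in other Tfh cells, and its call was lost without subclusters 5 to 8.

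Over all 6573 genes subcluster 0 was most like subclusters 3 and 1 in WT, and subclusters 3 and 2 in BKO. Log2 CPM correlated across genes at r = 0.944, 0.948 and 0.947 with subcluster 3 in WT run 1, WT run 2 and BKO, 0.943, 0.947 and 0.941 with subcluster 1 and 0.930, 0.936 and 0.944 with subcluster 2. With subcluster 4 it was 0.930, 0.9385 and 0.924. These correlations, of log2 values after adding 1 CPM, are across genes, which are not independent replicates, and the groups differ in UMI totals. In subcluster 2 of BKO Rflnb stood at 229 CPM against 138 and 142 CPM in WT, and Il4 at 63.8 CPM against 54.5 and 61.0 CPM.

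Tfr cells have their own subclusters in the authors' table. Tfr and Tfh cells come from the same libraries but share no rows. Of 6571 genes tested in Tfr cells, 134 (2.04%) were at least 1.5-fold higher in Tfr subcluster 0 than in other Tfr cells in all 3 samples and 112 (1.7%) lower. Of the 226 genes higher in Tfh subcluster 0, 177 were tested in Tfr, and 49 of these (27.7%) were higher in Tfr subcluster 0 too, which is 36.6% of the 134. Of the 154 lower, 135 were tested and 43 (31.9%) were lower, which is 38.4% of the 112. The opposite call in Tfr was made for 0 of the higher and 4 of the lower genes. Between the WT runs 38 cells were placed in Tfh subcluster 0 in 1 run and in Tfr subcluster 0 in the other. Of the 5 markers measured in Tfr, all 5 were higher. Lmo4 stood at 49.8, 54.6 and 96.8 CPM in Tfr subcluster 0 and 15.01, 17.1 and 17.7 CPM in other Tfr cells. Il4 showed a smaller ratio in Tfr, at 32.6, 29.0 and 32.4 CPM against 26.8, 28.9 and 19.15 CPM. Sostdc1 went opposite ways, at 76.1, 63.0 and 72.0 CPM in Tfr subcluster 0 against 17.6, 19.8 and 29.8 CPM in other Tfr cells.

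**Figure D5:**
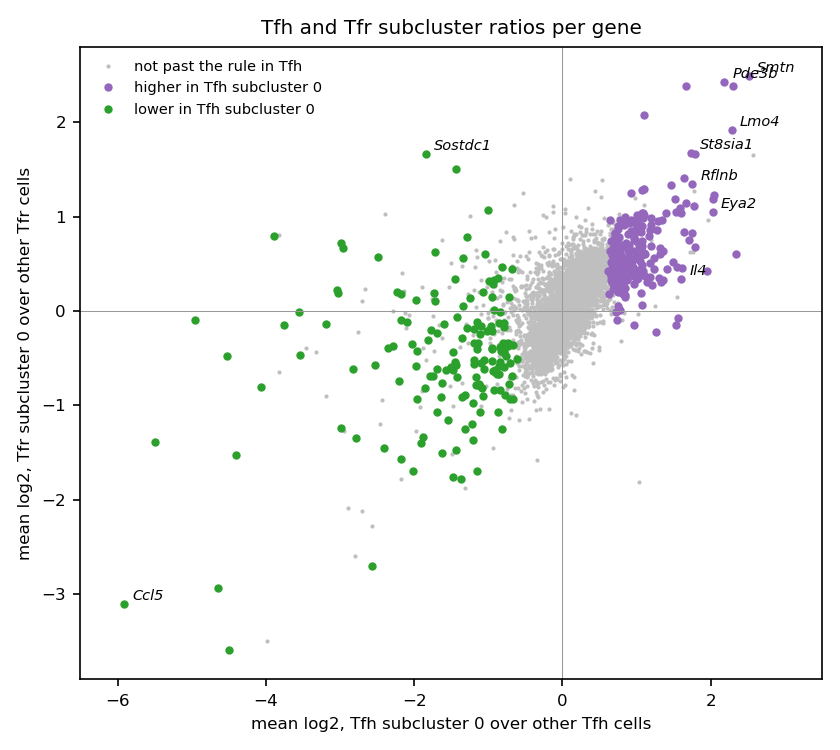
Mean log2 ratio over the 3 samples of Tfh subcluster 0 over other Tfh cells (x axis) and of Tfr subcluster 0 over other Tfr cells (y axis) for each gene (points), with genes past the rule in Tfh in colour. The markers lie in the upper right and Sostdc1 in the upper left.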

How the data were processed

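The deposited matrices hold raw UMI counts per gene and barcode. Cell Ranger and mm10 were used, per the submitters' processing notes. The version strings, per the file headers, are cellranger-7.0.1 for both WT matrices and Cell Ranger 4 for BKO. The sources used here do not say whether intron reads were included. The WT matrices hold 5554 and 5721 barcodes (32518538 and 54059000 UMIs) and the BKO matrix 1275404 barcodes, unfiltered (85225125 UMIs). Cells, class and subcluster (resolution 0.3) were taken from the authors' deposited tables, whose UMI counts of WT run 2 lie below the matrix by a factor of 1.519 in the median. No doublet caller was run, and no source used here describes doublet removal.

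UMIs were summed per sample and group and scaled to CPM. Since the WT samples hold the same cells, each genotype is 1 library, a rule of size (20 CPM, 1.5-fold, 0.5 CPM added) gives the calls, and no count model was fitted. Alternatives changed the scaling, the minimum, the fold, the amount added, the cells compared and the WT run used. Shares carry exact Clopper-Pearson and counts exact Poisson intervals at 95%. Gene models came from GENCODE on GRCm38, where 32235 of 32285 features (99.8%) were found. Named genes are the markers, those of largest ratio per direction (12 for the subcluster, 10 for BKO, 8 for the ratio of ratios), members of 28 gene lists past the rule or highest in CPM, and 12 fixed genes, without antigen receptor segments, models with no proper symbol and ribosomal or mitochondrial genes. The rest are named as chosen later. Some genes that the rule selects are not reported here. The members, lists and rules were chosen with earlier results of these data known. Overlapping and antisense genes cannot be told apart where strand use is not stated. Python 3.11.15, numpy 2.4.6, scipy 1.17.1, pandas 2.3.3, matplotlib 3.10.9, R 4.3.3 and edgeR 4.0.16 (TMM factors only) were used.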

Additional observations from a re-analysis of the deposited data

Results flagged for a closer look

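For 7 genes the sign of the BKO over WT log2 ratio in subcluster 0 was the opposite of that in other Tfh cells, against both WT runs, and the ratios differed by at least 1.5-fold. For Lmo4 (-0.01 and -0.08), Rflnb (-0.06 and -0.03) and Ctla2a (0.23 and 0.01) the ratio in subcluster 0 was near 0, so that no opposite direction is shown, and for Cd200 that in other Tfh cells was (0.16 and 0.02). With 1 library of each genotype the difference was not tested. The log2 ratio in subcluster 0 minus that in other Tfh cells was 3.64 for Ctla2a, 3.39 for Gzmk, 2.14 for Hip1 and 2.24 for Entpd1. It was -1.005 for Lmo4, -0.97 for Rflnb and -0.70 for Cd200. Ctla2a, Gzmk and Entpd1 rest on at most 38 UMIs of each in the members of any sample.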

How the results depend on the processing

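The share of subcluster 0, BKO minus WT, was -9.29 percentage points. It was -11.24 points with WT cells placed alike in both runs, -5.997 points with Tfh and Tfr cells as the total and -13.81 points without subclusters 5 and 6. Without subcluster 2 it was -1.659 points and without subclusters 2 and 5 -5.151 points, the last 2 settings added after seeing the data. Leaving out either WT run gave -9.691 to -8.89 points.

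The count of genes higher in subcluster 0 (226) was 135 with TMM scaling, 149 at a minimum of 50 CPM, 357 at 5 CPM and 55 at 2-fold. The count of genes lower (154) was 73 at 50 CPM, 346 at 5 CPM, 78 at 2-fold and 93 with 20 CPM in each of the 2 groups of cells, a setting added after seeing the data. Genes higher in BKO within subcluster 0 (31) numbered 12, 98 and 3 at these settings, and 50 to 69 with a WT run left out. Genes lower (30) numbered 10, 135 and 9, and 33 to 42. The count of genes with a higher ratio of ratios (139) was 59 with TMM, 52 at 50 CPM, 415 at 5 CPM and 30 at 2-fold. The lower side (15) counted 61 with TMM, 70 at 5 CPM and 6 at 2-fold. Fewer or more genes tested set the counts at other minimums. The cause of the others was not tested.

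Without subclusters 5 to 8 among the other Tfh cells, the log2 ratio of ratios turned to -0.27 for Gzmk and -1.07 for Ccl5. Single genes were recomputed for the markers, those of largest ratio and a few fixed or later chosen genes, 26, 26 and 14 genes in the 3 comparisons, and not for the other list members. Over all alternatives their call was kept 279 times and lost 33 times for subcluster 0 over other Tfh cells, 284 and 28 times for BKO over WT, and 125 and 27 times, with 2 reversals, for the ratio of ratios. No paired analysis was possible because BKO has only replicate 1. Depth limits genes under 20 CPM. At the main setting genes with a mean below it were not called, while a gene below it in 1 group or sample could be.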
